A study of Mus musculus with 7 samples.

Results

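The inner mitochondrial membrane is folded into cristae, and 10 genes that shape it were examined here by their symbols in a table of 22877 genes, where all 10 were listed. They are the MICOS subunits *Immt*, *Chchd3*, *Chchd6*, *Apoo* and *Apool*, the prohibitins *Phb* and *Phb2*, the membrane organisers *Stoml2* and *Atad3a*, and the cardiolipin synthase *Crls1*. Oocytes enclosed in secondary follicles of C57BL/6J mice, 8 weeks old, were taken for RNA sequencing. The *Mfn1*-/- mice carried floxed *Mfn1* alleles and Cre under the Zp3 promoter, which is active in growing oocytes, and the controls were wild-type (WT) littermates. Each library was made from 5 pooled oocytes, so single oocytes were not resolved, and the labels give 4 WT and 3 *Mfn1*-/- libraries. The authors' deposited table holds 1 mean of normalized counts per genotype and gene. These means carry no spread between libraries, and the authors' own p-values in the table were not used here, so no standard error, depth or p-value is given and each difference is a description of 2 means. The table's own sums fit 4 WT and 3 *Mfn1*-/- libraries, whereas the study's text gives n = 3 for each genotype.

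MICOS is a protein complex that sits where a crista meets the boundary membrane and keeps that neck narrow. Prohibitins assemble into rings that act as scaffolds of the inner membrane, and cardiolipin is the phospholipid that marks this membrane and holds its complexes. Mitochondria of mouse oocytes are known to be round with few cristae, and MFN1, the deleted protein, joins the outer membranes of mitochondria before the inner ones fuse.

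None of the 10 genes differed by 2-fold between the genotypes, and the prohibitins lay on the other side of 1 from most of the rest. *Crls1* and *Atad3a* had the largest differences, with *Mfn1*-/- means 1.60 and 1.65 times the WT means. The prohibitin *Phb2*, which as listed had the highest level of the 10, had a log2 ratio of -0.16, close to that of *Apool*, -0.14. Of the 10 genes, 7 were listed higher in *Mfn1*-/- oocytes and 3, *Phb*, *Phb2* and *Apool*, lower. The log2 ratio used throughout is log2 of the *Mfn1*-/- mean over the WT mean after adding a pseudocount of 0.1 to both, which understates the difference of genes with low means. The median log2 ratio of the 10 was 0.22. It was 0.16 over the 6226 genes whose mean reached 1, called expressed genes here, so the whole table leans to higher values in *Mfn1*-/- oocytes. After this median was subtracted, 6 of the 10 genes lay above 0, and *Apoo* changed sides to join *Phb*, *Phb2* and *Apool*. A 2-fold difference was reached by 8.74% of the expressed genes, against 0 of the 6 members that are such genes. Among the genes with a mean under 1 it was reached by 7.24%, against 0 of the other 4 members. With so few members, 0 is a count close to these backgrounds.

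Near-identical copies elsewhere in the genome come before the levels, because those of *Apoo*, *Phb* and *Stoml2* are listed in the table with values above 1. Processed pseudogenes are copies of an mRNA that were written back into the genome without introns. The coding sequence of each member was compared with all transcripts of GENCODE M21 on GRCm38, and a copy was counted where at least 75 bases, the length of a read, matched at 95% identity or more. *Immt*, *Chchd3*, *Chchd6*, *Apool* and *Crls1* had 0 such matches. *Apoo* (chromosome X, 94367117 to 94417093, plus strand) shares 586 of its 636 coding bases, with 0 mismatches, with *Apoo-ps* (chromosome 13, 107414144 to 107414729, minus strand), a processed pseudogene that consists of these bases alone. *Phb* (chromosome 11, 95666957 to 95680773, plus strand) shares all of its 816 coding bases with the transcribed processed pseudogene *Gm7666* (chromosome 15, 6653923 to 6654741, plus strand), with 1 mismatch. The *Apoo* stretch is shown because a read that lies within it matches gene and copy equally. The *Phb* stretch is shown because it holds the 1 coding base at which gene and copy differ. For *Apoo*, coding bases 285 to 384 are given, and capitals mark the bases on each side of an exon junction, which the copy holds without an intron. For *Phb*, coding bases 181 to 281 are given, and the capital at coding base 231 marks the base that differs.
Apoo: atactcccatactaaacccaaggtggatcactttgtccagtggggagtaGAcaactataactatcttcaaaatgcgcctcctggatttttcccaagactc
Apoo-ps: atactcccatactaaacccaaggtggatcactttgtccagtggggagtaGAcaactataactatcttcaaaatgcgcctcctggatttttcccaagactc
Phb: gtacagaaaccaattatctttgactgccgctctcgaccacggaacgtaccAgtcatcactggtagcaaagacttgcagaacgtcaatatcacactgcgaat
Gm7666: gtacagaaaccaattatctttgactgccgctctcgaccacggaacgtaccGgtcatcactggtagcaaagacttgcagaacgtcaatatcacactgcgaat

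The copies were listed far above the genes they match. *Apoo-ps* had means of 375 normalized counts in *Mfn1*-/- against 331 in WT oocytes, while *Apoo* had 1.71 and 1.58. In WT oocytes the copy was thus listed at 209 times the gene, and in *Mfn1*-/- oocytes at 219 times. *Gm7666* had means of 202 and 213, while *Phb* had 5.28 and 5.54, so this copy was listed at 38.3 and 38.4 times its gene. For *Stoml2* the order was the reverse. Its copy *Gm5626* (chromosome 13, 74533526 to 74534583), with 95.2% identity over 1046 bases, had means of 10.3 in *Mfn1*-/- against 7.41 in WT oocytes, against 29.4 and 22.9 for the gene. A second copy of *Phb*, *Gm7781* on chromosome X, was low, at 0.424 and 0.275. *Gm4740*, with 96.4% identity to the coding sequence of *Atad3a*, has no row in the table. *Phb* also matched transcripts of *Fyb* and *Gm2245* that overlap the *Gm7666* locus, and *Phb2* matched 78 bases of its antisense neighbour *Gm15884*, all with means of at most 0.104. How reads that match several places were counted is not given in the sources used here, so the listed levels of *Apoo* and *Phb* may be only a part of their transcripts. As listed, the log2 ratio was 0.18 for *Apoo-ps* and 0.11 for *Apoo*, and -0.08 for *Gm7666* and -0.07 for *Phb*, while the low *Gm7781* lay on the other side of 0 from *Phb*, at 0.48. When each mean was weighted by exon length and summed with its listed copies, an alternative chosen after seeing the data, the log2 ratio of *Apoo* was 0.18, that of *Phb* -0.07 and that of *Stoml2* 0.37. In these sums *Apoo* itself made up 1.01% in WT and 0.967% in *Mfn1*-/- oocytes, *Phb* 8.17% and 8.20%, and *Stoml2* 89.8% and 89.1%.

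**Figure D1:**
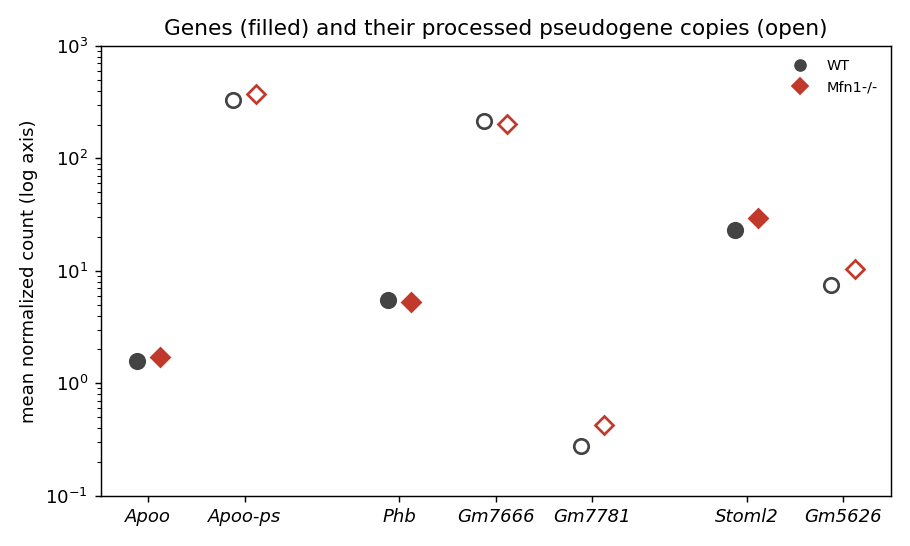
Mean normalized counts in the deposited table (vertical log axis) of *Apoo*, *Phb* and *Stoml2* (filled) and their processed pseudogene copies (open), as 1 mean per genotype, grey circles for WT and red diamonds for *Mfn1*-/-. *Apoo-ps* and *Gm7666* sit far above *Apoo* and *Phb* in both genotypes, while *Gm5626* sits below *Stoml2*.

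The unit of the deposited means bears on any comparison of levels between genes. The study's text calls the deposited values normalized read counts and names DESeq2 for its differential expression. The kind of normalization behind the means is not given in the sources used here. The smallest steps above the table's lowest value, 0.01, shrink with gene length: in the *Mfn1*-/- column the percentile 1 of the excess over 0.01 was 0.0023 among the shortest genes (2106 genes with a median of 469 exon bases) and 0.0002 among the longest (median 11018.5 exon bases). This is the pattern of values that were divided by length, and levels are compared between genes only on this reading. On the deposited scale the 10 genes spanned from 0.238 for *Chchd3* to 51.3 for *Phb2* in WT oocytes, and from 0.285 to 45.8 for the same genes in *Mfn1*-/- oocytes. In WT oocytes the order from the highest was *Phb2*, *Stoml2*, *Phb*, *Immt*, *Crls1*, *Apoo*, *Atad3a*, *Chchd6*, *Apool* and *Chchd3*, and the order was the same in *Mfn1*-/- oocytes. The neighbours *Atad3a*, *Chchd6* and *Apool*, at 0.472, 0.461 and 0.443 in WT oocytes, lay close together, and no spread is at hand to tell them apart. *Phb2* and *Stoml2* together held 84.9% of the summed means of the 10 genes in WT and 83.2% in *Mfn1*-/- oocytes. This order and these shares use the listed means and leave out the copies. Weighted by exon length and with their copies added, *Apoo* and *Phb* stood at 196 and 190 in WT oocytes, against 191 for *Phb2*. Such weighted amounts grow with exon length, which is 1255 bases for *Apoo*, 2805 for *Phb* and 3718 for *Phb2*. Their closeness therefore does not mean equal transcript levels, and they do not rank the genes. How much of the values listed under the copies belongs to *Apoo* and *Phb* is not known. The places of *Apoo* and *Phb* among the 10 are thus not fixed by the table.

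**Figure D2:**
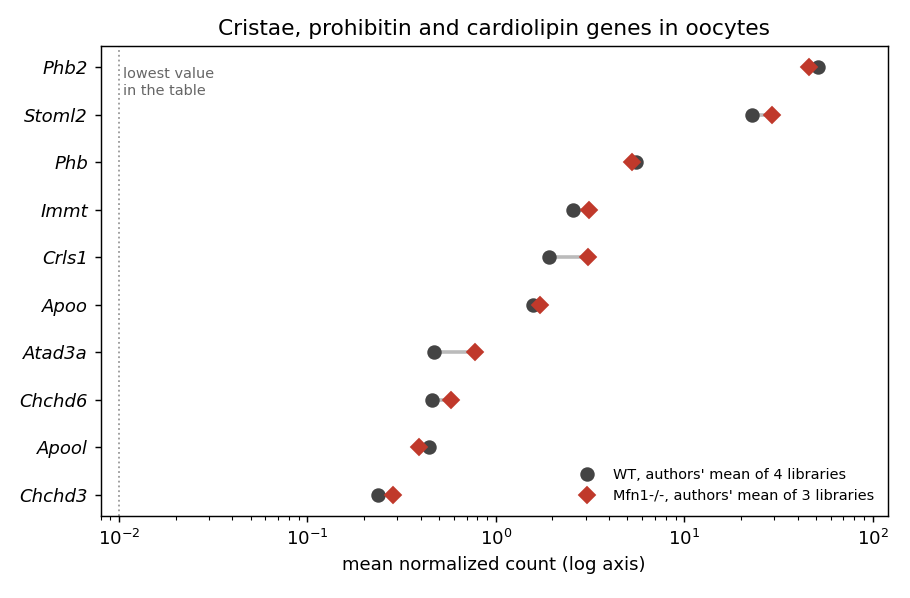
Mean normalized counts of the 10 genes (horizontal log axis), ordered by their WT level, with a grey circle for the WT mean of 4 libraries and a red diamond for the *Mfn1*-/- mean of 3 libraries, joined by a line, and no error bars because the table holds means only. The *Mfn1*-/- mean lies to the right for 7 genes and to the left for *Phb*, *Phb2* and *Apool*, and the widest gaps are those of *Atad3a* and *Crls1*.

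Among the MICOS subunits, *Immt* encodes mitofilin, the core of the complex. It lies on chromosome 6 from 71831331 to 71877388 and had means of 3.11 normalized counts in *Mfn1*-/- against 2.58 in WT oocytes, a log2 ratio of 0.26. A gene on the opposite strand, *Gm44771*, overlaps its exons by 185 bases and had means of 0.796 and 0.585, and reads of the pair cannot be told apart unless strand was used. *Chchd3* and *Chchd6* encode the paralogous partners that bind mitofilin. Both genes lie on chromosome 6, the first from 32790976 to 33060260 and the second from 89383146 to 89595652. The means of *Chchd3* were 0.285 and 0.238, a log2 ratio of 0.19, and those of *Chchd6* were 0.578 and 0.461, a log2 ratio of 0.27. The ratios of these 3 genes were alike, with each *Mfn1*-/- mean between 1.20 and 1.25 times the WT mean. *Immt* was listed at 10.8 times *Chchd3* in WT and 10.9 times in *Mfn1*-/- oocytes. Relative to the median of expressed genes, the log2 ratios were 0.10 for *Immt*, 0.03 for *Chchd3* and 0.11 for *Chchd6*. Of the expressed genes, 60.9%, 52.9% and 62.2% had lower log2 ratios, so the 3 lay near the middle of that set. *Chchd3* and *Chchd6*, with means under 1, are not themselves part of it.

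*Apoo* and *Apool* encode the apolipoprotein O family subunits of MICOS. *Apool*, on chromosome X from 112311334 to 112372755, had means of 0.393 in *Mfn1*-/- against 0.443 in WT oocytes, a log2 ratio of -0.14. The paralogs lay on different sides of 1, with *Apoo* at 3.57 times *Apool* in WT and 4.35 times in *Mfn1*-/- oocytes, a comparison that leaves out the reads listed under *Apoo-ps*. Summed over the 5 subunits, the means were 6.08 in *Mfn1*-/- against 5.30 in WT oocytes, a ratio of 1.15. *Immt* made up 51.2% and 48.7% of these sums.

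The prohibitins, PHB and PHB2, assemble in alternation into one ring, so their proteins are needed in like amounts. *Phb2* lies on chromosome 6 from 124712336 to 124716950, with means of 45.8 in *Mfn1*-/- against 51.3 in WT oocytes. The *Mfn1*-/- mean was thus 0.893 times the WT mean. *Phb* had a ratio of 0.953 and a log2 ratio of -0.07. Relative to the median of expressed genes, the log2 ratios were -0.32 for *Phb2* and -0.23 for *Phb*. Among the expressed genes, 22.1% had a lower log2 ratio than *Phb2* and 29.1% a lower one than *Phb*, so neither was at the edge of that set.

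As listed, the mRNAs of the pair were far from equal, with *Phb2* at 9.26 times *Phb* in WT and 8.67 times in *Mfn1*-/- oocytes. This number changes with the copies of *Phb*. *Gm7666* alone was listed at 4.15 times *Phb2* in WT and 4.41 times in *Mfn1*-/- oocytes. With each mean weighted by exon length and the copies of *Phb* added to it, *Phb2* stood at 1.00 times *Phb* in WT and 0.943 times in *Mfn1*-/- oocytes. These weighted amounts grow with exon length, 3718 bases for *Phb2* and 2805 for *Phb*, so 1.00 does not mean equal transcript levels. With the listed means simply added, *Phb2* stood at 0.234 and 0.221 times *Phb*. The length the authors divided by is not given in the sources used here, so the table fixes neither the order nor the ratio of the pair. *Phb2* relative to *Phb* was slightly lower in *Mfn1*-/- than in WT oocytes in each of these 3 forms. The forms share the same *Phb2* means, so they are not separate observations, and no spread is at hand for so small a difference.

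*Stoml2* encodes a stomatin-like protein that binds cardiolipin and prohibitins. It lies on chromosome 4 from 43027690 to 43031710. Its means were 29.4 in *Mfn1*-/- against 22.9 in WT oocytes, a log2 ratio of 0.36, and a gene on the opposite strand, *Gm26643*, overlaps 502 bases of its exons with means of 0.101 and 0.0455. *Stoml2* was thus listed higher while its partner *Phb2* was listed lower, and its ratio to *Phb2* was 0.446 in WT and 0.642 in *Mfn1*-/- oocytes. A ratio of 2 genes within a genotype does not depend on how the genotypes were scaled. *Atad3a* encodes an ATPase that spans the inner membrane and touches the mitochondrial nucleoids. It lies on chromosome 4 from 155740641 to 155761093 and had means of 0.779 in *Mfn1*-/- against 0.472 in WT oocytes, a log2 ratio of 0.62. Of the expressed genes, 86.0% had a lower log2 ratio.

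*Crls1* encodes cardiolipin synthase, which joins phosphatidylglycerol and CDP-diacylglycerol in the last step of cardiolipin synthesis. The gene lies on chromosome 2 from 132846666 to 132866785. Its means were 3.07 in *Mfn1*-/- against 1.92 in WT oocytes, a log2 ratio of 0.65, above that of 87.1% of the expressed genes. *Crls1* and *Atad3a* were the 2 members past a 1.5-fold difference in either direction. The same was reached by 1445 of the 6226 expressed genes. *Atad3a* has a mean under 1, and no 1.5-fold share was computed for such genes. Of the expressed genes, 15.5% were at least 1.5-fold higher in *Mfn1*-/- oocytes, and 1 of the 6 members among them, *Crls1*, was. The log2 ratios of *Crls1* and *Atad3a* were 0.49 and 0.46 relative to the median of expressed genes, both then under 1.5-fold. With a pseudocount of 1 they were 0.48 and 0.27. Set against *Phb2* within a genotype, *Crls1* stood at 0.0374 in WT and 0.067 in *Mfn1*-/- oocytes, a ratio of 1.79.

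**Figure D3:**
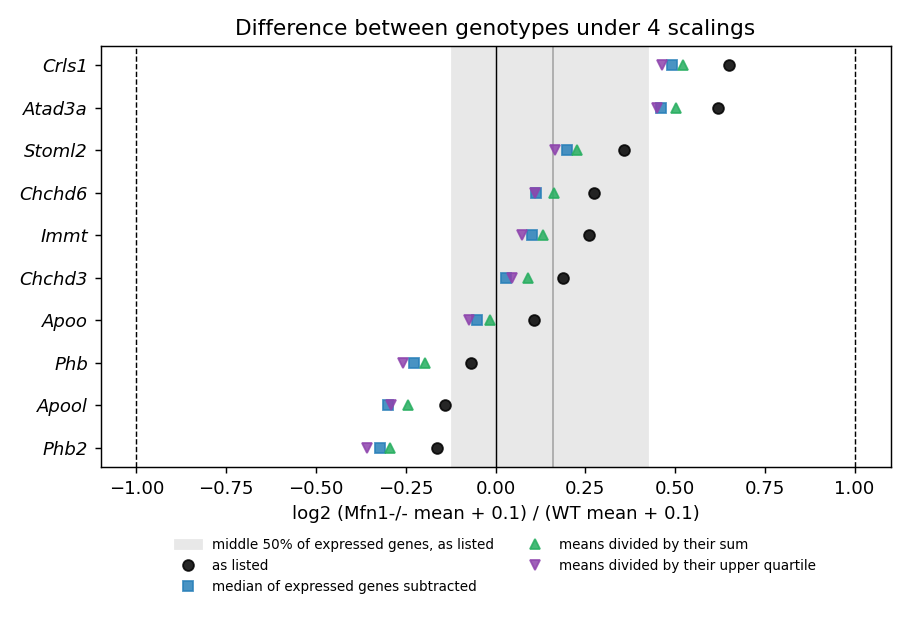
Log2 ratio of the *Mfn1*-/- over the WT mean (horizontal axis, pseudocount 0.1) of the 10 genes as listed (black circles) and under 3 other scalings (colored symbols), with the span from the lower to the upper quartile of expressed genes as a grey band, their median as a grey line and a 2-fold difference as dashed lines. No gene reaches the dashed lines, *Crls1* and *Atad3a* lie to the right of the band as listed, and *Apoo* is the gene that changes sides of 0.

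Further lists of genes with related tasks were set beside the 10. Of the expressed genes 65.4% were listed higher in *Mfn1*-/- oocytes, and of all 22877 genes 12973 were. Above the median of expressed genes lay 8399 of all genes. The counts below are to be read against both sets, because many genes of these lists have a mean under 1. A 2-fold difference was reached by 8.74% of the expressed genes and by 7.24% of those with a mean under 1. MICOS partners include the outer membrane proteins it binds and its small subunits. Of the 11 genes, 9 were listed higher in *Mfn1*-/- oocytes, 1 lower and 1 at an equal mean, with a median log2 ratio of 0.25, and 8 lay above the median of expressed genes. With the pseudocount 1 reached a 2-fold difference. That gene was *Chchd4*, the oxidoreductase that folds CHCHD proteins on import, with means of 1.26 and 0.534. *Slc25a46*, an outer membrane protein that binds MICOS, had means of 0.294 and 0.147, a ratio of 2 but a log2 ratio of 0.67 with the pseudocount. *Samm50*, the outer membrane assembly protein that MICOS touches, had means of 1.43 and 0.765, a log2 ratio of 0.82. *2410015M20Rik*, a small MICOS subunit now called Micos13 and listed highest here, had 22.7 in *Mfn1*-/- oocytes and a log2 ratio of 0.69, and the third highest among those with a mean of at least 1, *Minos1*, another small subunit, had 4.40 and 3.60. Among the genes of this list whose mean reached 1, the lowest log2 ratios were those of *Dnajc11*, 0.01, *Mtx2*, 0.16, and *Mtx1*, 0.17. *Mtx3*, with a mean under 1, was the gene listed lower, at -0.12. *Opa1*, the GTPase that fuses inner membranes, was listed at 0.261 in both genotypes.

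The cardiolipin list holds 21 genes of its synthesis, remodelling and transfer. Here 12 were listed higher and 9 lower in *Mfn1*-/- oocytes, 8 of the 21 lay above the median of expressed genes, the median log2 ratio was 0.09, and *Pld6*, a phospholipase of the outer membrane that can act on cardiolipin, was the 1 gene past 2-fold, with means of 0.589 and 0.178. *Ptpmt1*, the phosphatase 1 step before *Crls1*, had means of 0.386 and 0.153, a ratio of 2.52, but a log2 ratio of 0.94 with the pseudocount. *Pgs1*, which makes its substrate, had means of 3.35 and 2.96, and *Tamm41*, which makes CDP-diacylglycerol in mitochondria, had 1.25 and 1.37. *Taz*, which encodes the remodelling enzyme tafazzin, had 6.04 and 5.47. *Prelid1*, a phosphatidic acid carrier, had the highest log2 ratio among those with a mean of at least 1, 0.56, followed by *Cds1*, 0.32, and *Triap1*, 0.24, the partner of PRELID1 and the most abundant gene of the list at 81.1 and 68.7. By the same minimum mean the lowest were *Tamm41*, -0.12, *Prelid3b*, -0.07, and *Stard7*, 0.09, while genes with a mean under 1 reached down to *Pnpla8*, -0.46, and *Prelid3a*, -0.43, the latter with means of 0.0203 and 0.0618, a ratio of 0.329 without the pseudocount. The synthesis genes thus did not share one value: the ratios of *Crls1* and *Ptpmt1* stood beside means that were nearly equal for *Pgs1*, *Tamm41* and *Cds2*, the last with 0.275 and 0.253.

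Of 14 inner membrane proteases and scaffolds, 9 had a higher, 4 a lower and 1 an equal mean, 6 lay above the median of expressed genes, and the median log2 ratio was 0.12. *Letmd1* was the 1 gene past 2-fold, with means of 0.631 and 0.248. *Chchd2*, the most abundant, had 73.4 and 68.1. The highest log2 ratios among those with a mean of at least 1 were *Chchd10*, 0.47, *Oma1*, 0.28, and *Chchd2*, 0.11, and the lowest were *Letm2*, -0.33, *Parl*, -0.11, and *Ghitm*, 0.08. OMA1 and PARL are proteases of this membrane, and PARL works in one complex with the product of *Stoml2*. The 6 genes of the ATP synthase dimer list, whose products bend the crista rim or bind the enzyme, were listed higher in *Mfn1*-/- oocytes in all 6 cases, at a median log2 ratio of 0.19, and 4 of the 6 lay above the median of expressed genes. *Atpif1*, the inhibitory factor, was highest, with 51.6 and 36.0 and a log2 ratio of 0.52, followed by *Atp5k*, 0.31 and the most abundant at 83.5 and 67.2, and *Atp5j2*, 0.21. *2010107E04Rik*, 0.04, *Usmg5*, 0.05, and *Atp5l*, 0.18, were the lowest. None of the 6 reached 2-fold. With at most 1 gene past 2-fold, each related list lay close to the shares of all genes, 8.74% and 7.24%. *Chchd4*, *Letmd1* and *Pld6* each had a mean over libraries under 1.

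**Figure D4:**
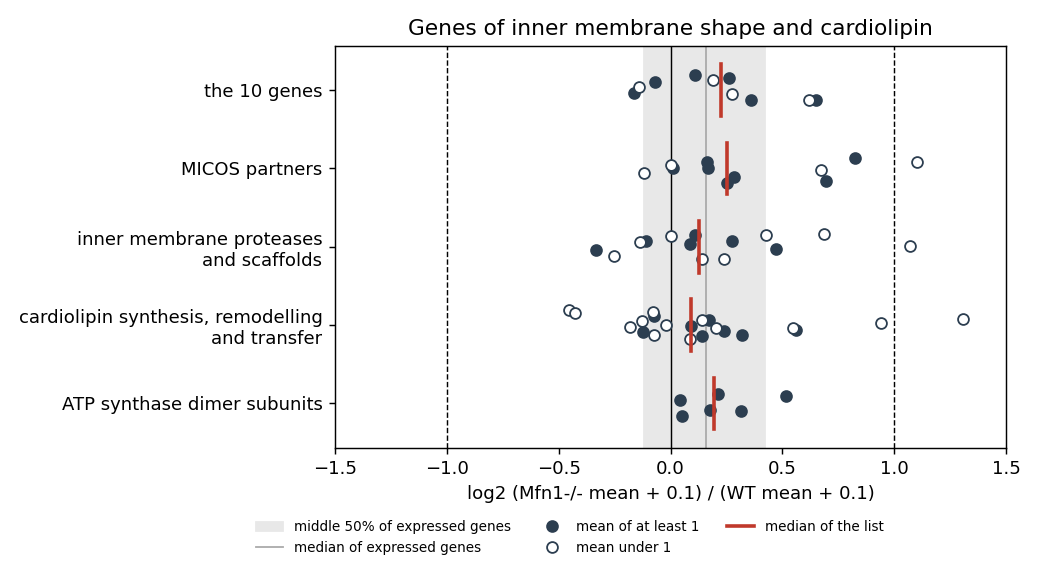
Log2 ratio of the *Mfn1*-/- over the WT mean (horizontal axis, pseudocount 0.1) of each gene in the 10 and in 4 related lists, filled for a mean of at least 1 and open for a mean under 1, with a red bar for the median of each list, the quartile span of expressed genes as a grey band and a 2-fold difference as dashed lines. The medians of all 5 rows lie inside the band, and the 3 genes past the right dashed line are *Chchd4*, *Letmd1* and *Pld6*.

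The deleted gene and the cell type markers were read in the same means. *Mfn1* had 0.0577 in *Mfn1*-/- against 0.616 in WT oocytes, a ratio of 0.0937. All 12 oocyte markers were listed, and their summed means were 4086 in *Mfn1*-/- against 3674 in WT oocytes. Of 12 granulosa cell markers 11 were listed, 7 of them with a mean under 0.1, and their sums were 2.35 and 1.74, or 0.484 and 0.781 without *Inha*. Of the 11, 3 were listed higher and 8 lower in *Mfn1*-/- oocytes. *Amh* and *Fshr* had at most 0.0349, while *Inha* had 1.87 in *Mfn1*-/- against 0.954 in WT oocytes. *Cyp19a1*, *Nr5a2* and *Hsd17b1* had 0.193, 0.171 and 0.152 in WT and 0.0846, 0.0974 and 0.0412 in *Mfn1*-/- oocytes. Of 7 theca and stroma markers 5 were listed, with sums of 0.163 and 0.174. Of 5 blood and immune markers 2 were listed, *Pecam1* with 0.168 and 0.188, and *Cd68*, a lysosomal protein of macrophages, with 7.58 and 0.672. The part of other cells in the values of the 10 genes was not tested, and in pooled oocytes fewer cells of a type and less RNA per cell cannot be told apart.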

How the data were processed

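Per the labels and the study's methods, cDNA of 5 oocytes per library was amplified with Smart-Seq2, and Nextera XT libraries were sequenced as paired reads of 75 bases. Trimming with Cutadapt, filtering with the FASTX-Toolkit and alignment with STAR to GRCm38/mm10 were done by the authors before reads were counted on genes. Groups were taken from sample titles. The deposited signal is, for each gene, the authors' mean normalized count in each genotype and the sum over libraries, with 0.01 as the lowest mean. This sum was within 1% of 3 times one mean plus 4 times the other in all 22877 genes. The annotation, the strand setting, the treatment of reads with several matches and the normalization are not given in the sources used here. The table also holds the authors' ratio, fold change, p-value and FDR for each gene, which were not used. Unused columns of per-sample values numbered 0.

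Log2 ratios of the genotype means were computed with a pseudocount of 0.1. A gene was called past a fold of 2, the fold that the study names, and expressed at a mean of 1 over the 7 libraries. The study also required a false discovery rate and a minimum of reads. Neither was applied here, so the counts past 2-fold are not the study's calls. The planned limma fit needs values of single libraries, so no test was run. The calculation was tested on simulated data. All 10 members are named. In each related list the genes past 2-fold, the 3 highest and 3 lowest with a mean of at least 1 and the most abundant are named, and genes next to *Crls1* in its pathway, *Opa1*, *Mtx3*, *Slc25a46*, *Pnpla8*, *Prelid3a*, the pseudogenes, overlapping genes and single markers were named after their values were seen. Members and lists were chosen with earlier results of these data known. Exon lengths, positions and transcripts come from GENCODE M21 on GRCm38, with 21892 names matched once. Copies were found with blastn 2.17.0. Python 3.11.15, numpy 2.4.6, pandas 2.3.3 and matplotlib 3.10.9 were used. Alternatives were other pseudocounts, scalings, fold thresholds and minimum means.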

Additional observations from a re-analysis of the deposited data

How the results depend on the processing

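The count of members past 2-fold was 0 under every pseudocount and scaling tried and with copies summed in, and it was 2 with a fold threshold of 1.5. The number with a higher mean was 7 with any pseudocount and 6 under each of the 3 other scalings. The median log2 ratio of the members, 0.22, was 0.26 with the pseudocount left out or set to 0.01, 0.091 with it set to 1, 0.18 over the members with a mean of at least 1, 0.065 relative to the median of expressed genes, 0.11 after the means were divided by their sum and 0.060 after division by their upper quartile. The ratio of the summed member means, 1.03, turned to 0.926, 0.944 and 0.904 under these 3 scalings in the same order. Of the expressed genes 544 were past 2-fold, which became 282 with a pseudocount of 1, 1445 with a fold threshold of 1.5, 1593 with a minimum mean of 0.1 and 1749 with none. Leaving out single libraries was not run, since the values used are genotype means. No paired analysis was possible because the table gives no values of single libraries. Depth per library is unknown, and the authors' p-values were not used, so no difference was set against replicate error here.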
